A study of Mus musculus with 4 samples.

Results

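Aminoglycoside antibiotics such as gentamicin are taken up by the sensory hair cells of the cochlea, and the channel of mechanotransduction at the tips of the stereocilia is the entry route most often named. The 9 genes described here encode other proposed routes, or close relatives of proposed routes: the endocytic receptors megalin (Lrp2) and cubilin (Cubn), the endolysosomal channels Mcoln1 and Mcoln3, and the plasma membrane channels Trpm2, Trpm4, Trpv4, Trpa1 and Trpv1 of the transient receptor potential (TRP) family. They were taken by symbol from the 23420 genes listed in every deposited table, whatever their values, and all 9 were found.

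Megalin is a very large receptor of the LDL receptor family that takes ligands, aminoglycosides among them, from the lumen of the kidney proximal tubule into endosomes, and cubilin, which has no membrane-spanning part of its own, works with it. TRP channels are cation channels, several of which have pores wide enough to pass large organic cations, and in the inner ear they have been studied both as sensors and as ways in for aminoglycosides. Mucolipins are TRP channels of endosomes and lysosomes, the compartments in which drug taken up by endocytosis collects, and gain-of-function changes in Mcoln3 cause the deafness of varitint-waddler mice.

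Cochleae of postnatal day 1 Atoh1-GFP mice, strain CD1, were cultured overnight in a medium with penicillin, and part of them then received 0.5 mM gentamicin for 3 h. GFP positive hair cells and GFP negative non-hair cells were sorted from control and from treated organs, which gave 4 groups (control hair cells, treated hair cells, control non-hair cells and treated non-hair cells) of 3 replicates each. Every group carried the Atoh1-GFP reporter. Cells with weak GFP were gated out, so the hair cell groups held strongly labelled cells of all hair cell kinds together, and the non-hair cell groups mixed supporting cells with other epithelial cells, mesenchyme, neurons and vessels. No source used here says whether the replicates came from separate litters or culture days, so the p-values below measure the spread between these sorts.

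The deposited value is a normalised read score: reads on a gene, scaled per replicate, plus 1. A score of 1 therefore means no reads, and scores of 1 gene can be compared between replicates but scores of different genes cannot, because gene length was not divided out. Between 22400381 and 28151838 reads fell on genes per replicate. The summed level (score minus 1) of 8 hair cell markers was 11662–12125 in control hair cells, 9668–10701 in treated hair cells, 286–308 in control non-hair cells and 265–319 in treated non-hair cells. By these markers the sorted populations matched their labels. In the other direction, the summed level of 8 genes of the stria vascularis and cochlear roof epithelium was 1298–3034 in control non-hair cells, 1190–2783 in treated non-hair cells, 64.5–121 in control hair cells and 24.0–40.2 in treated hair cells. No gene of either list was without reads in any group. Lists of 10 supporting cell genes and 8 neuron genes overlapped between the control populations. The supporting cell list stood at 1913–2259 in control hair cells and 1461–2228 in control non-hair cells. The neuron list stood at 1168–1335 and 632–1581. In bulk samples such as these, fewer cells of a type and less RNA per cell cannot be told apart.

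Of the 9 genes, 8 had at least 100 reads over the 12 replicates and were tested with limma, and Trpv1 was not. Without drug, 7 of the 8 differed between hair cells and non-hair cells at an adjusted p under 0.05, 3 of them higher in hair cells and 4 lower. Trpa1, 1 of the 4, reached the minimum of reads through the non-hair cells alone, and so had to differ. That share stood beside a background of 74.1% of all 16077 genes tested, so a difference between the populations was the rule for expressed genes. Gentamicin changed 1 of the 8 in hair cells, Mcoln1, which fell, against a background of 27.5% of genes called (unadjusted p under 0.01 and a fold above 1.2, the criteria stated in the study's methods). It changed 1 of the 8 in non-hair cells, Trpm2, which fell, against a background of 5.44%. None of the 8 responses differed between the populations by limma at an adjusted p under 0.05, against 13.4% of all genes, and none did with voom weights. At an unadjusted p under 0.05 there were 3 of the 8 (Cubn, Mcoln1 and Trpm2), beside 30.3% of all genes.

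**Figure D1:**
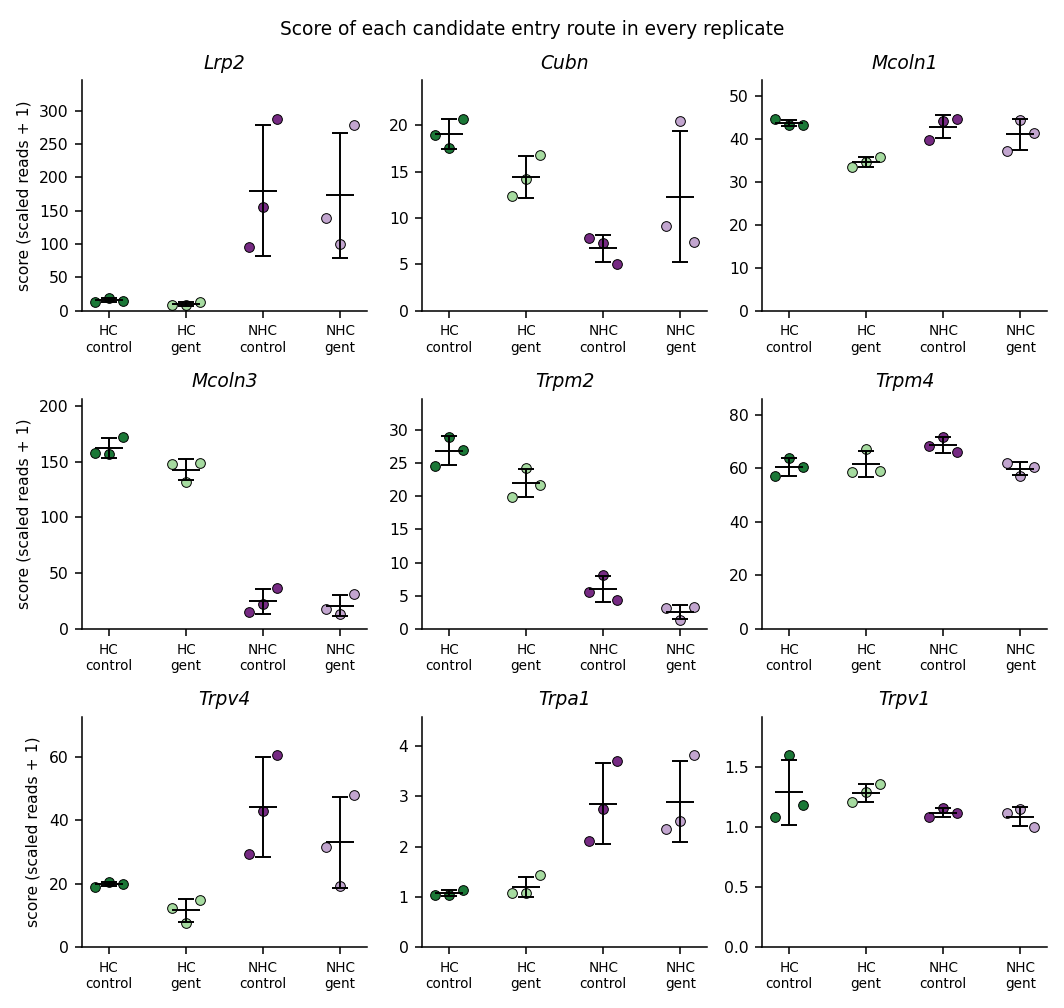
Score (scaled reads plus 1, linear axes from 0) of each of the 9 genes in every replicate of control and gentamicin-treated (gent) hair cells (HC) and non-hair cells (NHC); points are replicates, wide ticks means and bars ± SD (n = 3). Lrp2, Trpv4 and Trpa1 were higher in non-hair cells, Mcoln3, Trpm2 and Cubn in control hair cells, and Mcoln1 stood at 33.5–35.9 in treated hair cells, below every other replicate.

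Megalin and cubilin, which work as partners in the kidney, were distributed in opposite ways. Lrp2 lies on chromosome 2 (chr2:69424340-69586065, minus strand, mm10), and its longest coding transcript has 79 exons and 15460 bases. It scored 95.8, 155 and 288 in control non-hair cells and 13.4, 19.9 and 14.6 in control hair cells. The groups were far apart, and the fit put Lrp2 10.3-fold lower in hair cells (log2 fold change -3.37, SE 0.41, adjusted p = 1.62e-05 by limma).

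Cubn lies on the same chromosome (chr2:13276338-13491813, minus strand, 67 exons and 11262 bases in its longest coding transcript). It scored 19.0, 17.5 and 20.7 in control hair cells and 7.86, 7.30 and 5.05 in control non-hair cells. Every control hair cell replicate was above every control non-hair cell replicate, a log2 difference of 1.52 (SE 0.32, adjusted p = 9.84e-04 by limma). An antisense gene, Gm13270, overlaps 368 bases (3.27%) of the Cubn transcript. Strand was not stated for the counting, so reads of the pair cannot be told apart in that stretch.

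Lrp2 varied widely among the non-hair cell replicates, and no change with gentamicin was detected there. After the drug it scored 139, 101 and 279, inside the control range of 95.8 to 288, and the fitted log2 change was -0.05 (95% interval -0.96 to 0.86, adjusted p = 0.967 by limma). Replicate 3 was highest in both groups. The summed level of the roof epithelium list ran alongside, at 1298, 2026 and 3034 in control and 1541, 1190 and 2783 in treated non-hair cells. Most of that sum, in every replicate of both populations, was Oc90, an otoconial protein gene of that epithelium. Oc90 scored 1082, 1844 and 2889 in control and 1300, 892 and 2604 in treated non-hair cells. Enpp2, the next largest, ran the other way, at 193, 147 and 97.5 in control and 216, 281 and 131 in treated replicates. The lower-scoring Otx2, Kcnq1 and Ttr ran with Oc90. Per 1000 units of the roof list, the Lrp2 level was 73.0, 76.2 and 94.5 in control and 89.6, 83.6 and 99.8 in treated replicates, a much narrower range than its scores. Mesenchyme genes ran the other way, with their summed level highest in treated replicate 2 (5807) and lowest in control replicate 3 (3115). Over these 6 replicates the Pearson correlation of the log2 values of Lrp2 was 0.982 with the roof list. It was 0.970 with a list of 5 greater epithelial ridge genes and 0.909 with a list of 10 supporting cell genes. Whether the mix of cells in each sort sets the Lrp2 spread was not tested.

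In hair cells Lrp2 scored 8.30, 9.24 and 13.6 after gentamicin, against 13.4 to 19.9 in control. The ranges overlapped narrowly and the log2 change of -0.64 (95% interval -1.55 to 0.27) did not pass the test (adjusted p = 0.262 by limma). The roof list moved in the same direction, from 64.5–121 to 24.0–40.2, and farther: per 1000 units of that list, Lrp2 went from 156–194 to 205–340, higher in every treated replicate. As a share of the non-hair cell level, Lrp2 in hair cells was 8.39% in control and 5.46% after drug, while Oc90 was 3.91% and 1.82% and the mesenchyme collagen gene Col1a2 was 4.29% and 1.27%. How much of the hair cell Lrp2 signal came from other cells in the sort was not tested.

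Cubn showed an estimate of opposite sign in each population, with neither called. In treated hair cells it scored 12.3, 14.2 and 16.8, below each control replicate, and its log2 change was -0.41 (95% interval -1.10 to 0.28, adjusted p = 0.347 by limma). In treated non-hair cells it scored 9.11, 20.4 and 7.40 against 5.05 to 7.86 in control. Replicate 2 stood well above the others there, and the log2 change was 0.75 (95% interval 0.06 to 1.44, adjusted p = 0.261). The difference between the responses was -1.16 (SE 0.45, adjusted p = 0.108). Without treated non-hair cell replicate 3, the non-hair cell change was 1.04 and met the study's criteria (adjusted p = 0.082), and the difference of -1.45 passed as well (adjusted p = 0.0397). Without treated non-hair cell replicate 2, the change was 0.31 (adjusted p = 0.674) and the difference -0.72 (adjusted p = 0.117). The summed mesenchyme level was also highest in treated non-hair cell replicate 2, at 5807 against 3115–4497 in the other 5 replicates.

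The upstream sequences of the pair are shown because the 2 receptors that act together differed in the population that carried them. Each is the 250 bases before the gene's RefSeq start (GRCm38.p6, the mm10 build), 5′ to 3′ on the gene's strand, in lower case. That start is not always the gene start printed here, and the Lrp2 window runs slightly into the gene as positioned. The motifs CACGTG and CAGCTG, which read the same on either strand, were searched in every such window, and matches were put in capitals. CACGTG is the core of elements bound by lysosomal regulators such as TFEB, and CAGCTG is one form of the E-box bound by bHLH factors. Neither occurs in these windows of Lrp2 (chr2:69586030-69586279) and Cubn (chr2:13491877-13492126), which differ in base composition, at 66.4% and 39.6% G and C.
Lrp2: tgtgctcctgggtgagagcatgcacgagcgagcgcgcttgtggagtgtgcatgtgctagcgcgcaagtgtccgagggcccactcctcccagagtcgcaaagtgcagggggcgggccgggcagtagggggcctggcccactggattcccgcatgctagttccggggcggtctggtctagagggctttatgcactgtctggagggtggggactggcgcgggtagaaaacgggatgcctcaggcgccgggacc
Cubn: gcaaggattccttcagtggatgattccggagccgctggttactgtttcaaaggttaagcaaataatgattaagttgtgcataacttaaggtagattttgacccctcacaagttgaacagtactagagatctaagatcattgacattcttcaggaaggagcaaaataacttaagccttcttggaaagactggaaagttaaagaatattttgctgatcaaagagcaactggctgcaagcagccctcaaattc

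The mucolipins Mcoln1 and Mcoln3 are paralogues, and they too were distributed differently. Mcoln1, the channel of late endosomes and lysosomes that is lost in mucolipidosis type IV, lies at chr8:3500457-3515232 (plus strand, 14 exons and 2065 bases in its longest coding transcript). It scored 44.6, 43.4 and 43.3 in control hair cells and 39.9, 44.2 and 44.8 in control non-hair cells. Those ranges overlapped and differed by a fitted log2 value of 0.03 (95% interval -0.14 to 0.20, adjusted p = 0.748 by limma).

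Mcoln1 fell in hair cells after gentamicin and was the gene of the 9 called there. It scored 33.5, 34.7 and 35.9 in treated hair cells, all below the lowest control score of 43.3. The log2 change was -0.34 (SE 0.08, 95% interval -0.51 to -0.16, adjusted p = 0.00787 by limma), a level 1.26-fold lower. In the non-hair cells given gentamicin it scored 37.3, 44.5 and 41.5, within the control spread, and the log2 change was -0.07 (95% interval -0.24 to 0.11, adjusted p = 0.704). The difference between the responses was -0.27 (SE 0.11, adjusted p = 0.128), so the fall was not shown to be particular to hair cells. Scaled by total reads, the hair cell change was -0.24 with an adjusted p of 0.0399, a fold under 1.2, and the call was lost. That scaling moved the median of all genes in hair cells by 0.09 on the log2 scale, and under the deposited scaling that median was -0.09.

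Mcoln3, a channel of endosomes, lies at chr3:146117450-146141806 (plus strand, 12 exons and 2991 bases in its longest coding transcript). It scored 158, 157 and 172 in control hair cells and 15.0, 22.7 and 36.5 in control non-hair cells. The groups were well apart, with Mcoln3 6.99-fold higher in hair cells (log2 fold change 2.81, SE 0.31, adjusted p = 6.78e-06 by limma). The hair cell marker list in non-hair cells stood at 2.40–3.13% of its mean in hair cells. The mean Mcoln3 level in control hair cells was 679% of that in control non-hair cells.

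After gentamicin Mcoln3 scored 148, 132 and 149 in hair cells. All 3 were below the control scores, but the log2 change of -0.18 (95% interval -0.87 to 0.50) did not pass (adjusted p = 0.688 by limma). In this 4-group fit the spread of Mcoln3 among non-hair cells enters the error. Fitting only the hair cell groups did not bring a call either (adjusted p = 0.0702). In treated non-hair cells it scored 18.4, 13.5 and 31.2, and the log2 change was -0.23 (95% interval -0.91 to 0.46, adjusted p = 0.747). There it kept an almost fixed ratio to the roof epithelium list: per 1000 units of that list the level was 10.8, 10.7 and 11.7 in control and 11.3, 10.5 and 10.9 in treated replicates. Over the 6 non-hair cell replicates the Pearson correlation of the log2 values was 0.997, a description over points that share libraries. It was also 0.958 with the supporting cell list, 0.953 with the greater epithelial ridge list and -0.887 with the mesenchyme list, so the roof list was not alone.

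**Figure D2:**
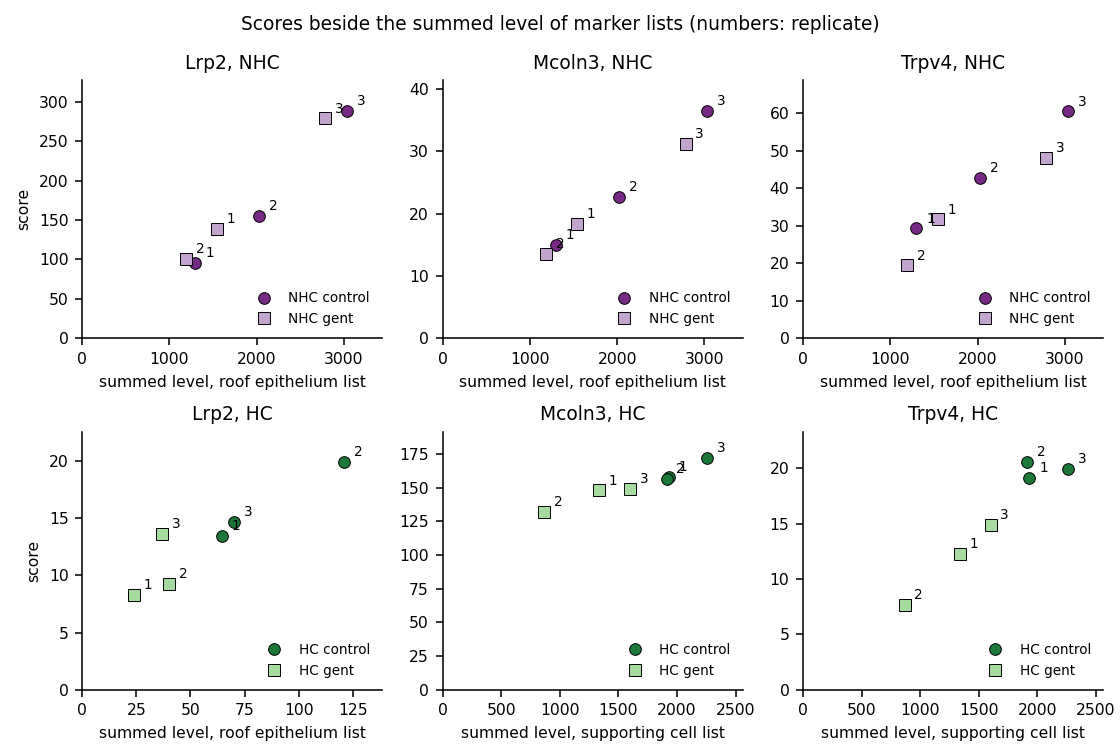
Scores of Lrp2, Mcoln3 and Trpv4 (vertical axes, linear from 0) against the summed level of a marker list in the same replicate (horizontal axes) for non-hair cells (NHC, upper row) and hair cells (HC, lower row); circles are control, squares gentamicin (gent), and numbers are replicates. In non-hair cells each score was highest in the replicates numbered 3, where the roof list stood at 3034 and 2783, and in hair cells Trpv4 stood at 19.2–20.5 in control and 7.69–14.9 after drug beside a supporting cell list that went from 1913–2259 to 866–1599.

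The upstream windows of the mucolipins are shown because of these 9 genes Mcoln1 was the one called in treated hair cells and Mcoln3 the one with the highest level there. The Mcoln1 window (chr8:3500269-3500518, plus strand) holds CACGTG at 2 places, which begin 71 and 45 bases before the start, and CAGCTG 25 bases before it. Of 32851 promoter windows of the same length, 6.02% held CACGTG and 0.43% held it at 2 or more places. The Mcoln3 window (chr3:146121541-146121790, plus strand) holds CAGCTG 33 bases before the start, as did 13.0% of all windows at any position. These RefSeq starts lie downstream of the gene starts printed above, 3500457 for Mcoln1 and 146117450 for Mcoln3. The Mcoln3 window therefore lies inside the gene as positioned. In Mcoln1 the nearer CACGTG and the CAGCTG do too. A match of letters is not evidence of binding in these cells.
Mcoln1: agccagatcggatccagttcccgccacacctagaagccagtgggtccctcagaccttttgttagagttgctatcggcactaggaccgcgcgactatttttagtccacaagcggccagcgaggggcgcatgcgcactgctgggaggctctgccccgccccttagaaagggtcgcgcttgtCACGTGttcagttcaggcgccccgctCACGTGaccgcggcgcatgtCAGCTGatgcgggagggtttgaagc
Mcoln3: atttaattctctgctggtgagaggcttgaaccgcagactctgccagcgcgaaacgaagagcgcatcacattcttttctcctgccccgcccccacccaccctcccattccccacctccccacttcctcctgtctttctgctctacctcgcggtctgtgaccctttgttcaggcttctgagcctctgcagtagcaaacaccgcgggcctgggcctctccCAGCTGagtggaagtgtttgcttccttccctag

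The windows of Trpm2, Trpv4 and Trpv1 hold neither motif, and 7 of the 9 genes had an entry in the RefSeq promoter table, with Trpa1 and Trpm4 unmatched.

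Trpm2, a calcium-permeable channel opened by ADP-ribose and by oxidative stress, lies at chr10:77907722-77970563 (minus strand, 34 exons and 7274 bases in its longest coding transcript). It scored 24.6, 28.9 and 27.0 in control hair cells and 5.62, 8.15 and 4.38 in control non-hair cells. The groups were apart, with Trpm2 4.57-fold higher in hair cells (log2 fold change 2.19, SE 0.32, adjusted p = 6.96e-05 by limma). Small annotated genes, Gm22394 and Gm22871, overlap 44 and 47 bases of its exons.

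After gentamicin the Trpm2 estimate was below 0 in both populations, and the gene was called in non-hair cells. It scored 3.14, 1.30 and 3.26 in treated non-hair cells, all below the lowest control score of 4.38. These scores rested on 8 to 64 reads per replicate, against 87 to 181 in control. The log2 change was -1.31 (SE 0.32, adjusted p = 0.0956 by limma), which met the study's criteria but would not pass an adjusted p under 0.05. The call was lost without control replicate 2 (log2 change -1.07, adjusted p = 0.369) and with the non-hair cell groups fitted alone (adjusted p = 0.40). It was -0.87 without treated replicate 2. With an offset of 0.1 in place of 1 it was -1.94 (adjusted p = 0.133), and with voom weights -2.06 (adjusted p = 0.128).

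In treated hair cells Trpm2 scored 19.9, 24.2 and 21.7, all below the lowest control score of 24.6. The log2 change was -0.29 (95% interval -0.997 to 0.418, adjusted p = 0.524 by limma; 0.0629 when only the hair cell groups were fitted). The difference between the responses was 1.02 (SE 0.46, adjusted p = 0.159), and 1.64 with an offset of 0.1, 1.76 with voom weights and 0.58 without treated non-hair cell replicate 2, none called. Treated non-hair cell replicate 2, where Trpm2 was lowest, also had the lowest summed level of 8 neuron markers, 324 against 632–1581 in the other 5 non-hair cell replicates. It was lowest as well for the supporting cell (1153), greater epithelial ridge (1917) and roof epithelium (1190) lists. The endothelial (531) and mesenchyme (5807) lists were highest there. The neuron list stood at 1168–1335 in control hair cells, so it does not mark non-hair cells alone. The part of any of these cell types in the Trpm2 value was not tested.

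Trpm4, a calcium-activated channel that passes sodium and potassium but not calcium, differed little between the groups. It lies at chr7:45302632-45333780 (minus strand, 25 exons and 4234 bases in its longest coding transcript) and scored 57.2, 64.0 and 60.4 in control hair cells and 68.3, 71.7 and 66.0 in control non-hair cells. A difference of -0.18 in log2 score (SE 0.07, adjusted p = 0.0399 by limma) passed narrowly. It was lost in 4 of the 6 fits without 1 control replicate (without hair cell replicate 1 or 3 or non-hair cell replicate 1 or 2, adjusted p = 0.0708 to 0.146) and after scaling by the median of ratios, at -0.07 (adjusted p = 0.418), a scaling that moved the median of all genes in this comparison by 0.11.

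After gentamicin Trpm4 scored 58.6, 67.2 and 59.1 in hair cells, across the control range, with a log2 change of 0.02 (95% interval -0.14 to 0.19, adjusted p = 0.828 by limma). With drug in non-hair cells it scored 61.9, 57.2 and 60.7, all below the control scores. The log2 change there was -0.20 (95% interval -0.36 to -0.04) and was not called (adjusted p = 0.212).

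Trpv4, a channel opened by osmotic swelling and warmth, lies at chr5:114622152-114658421 (minus strand, 16 exons and 3228 bases in its longest coding transcript). It scored 19.2, 20.5 and 19.9 in control hair cells and 29.4, 42.8 and 60.5 in control non-hair cells. Hair cells were lower in every replicate, a log2 difference of -1.09 (SE 0.34, adjusted p = 0.0125 by limma). Without control non-hair cell replicate 3 the difference was -0.84 and the call was lost (adjusted p = 0.0563).

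Trpv4 had the estimate farthest below 0 of the 8 genes in treated hair cells. It scored 12.3, 7.69 and 14.9 there, all below the control scores, and the log2 change was -0.83 (95% interval -1.57 to -0.08). The change was not called in the 4-group fit (adjusted p = 0.0843 by limma) but was when only the hair cell groups were fitted (-0.83, adjusted p = 0.0227). The summed level of 10 supporting cell genes was 1931, 1913 and 2259 in control and 1337, 866 and 1599 in treated hair cells. Its order over the treated replicates was that of Trpv4. Per 1000 units of the list, Trpv4 was 9.40, 10.2 and 8.39 in control and 8.45, 7.73 and 8.69 in treated hair cells, and those ranges overlapped. Per 1000 units of a list of 5 greater epithelial ridge genes, the control replicates stood at 11.7–15.7 and the treated ones at 9.13–9.99, with no overlap. Whether the Trpv4 values follow supporting cells in the sort was not tested. Each of these 10 genes had reads in every group, and their summed level in control non-hair cells was 1461–2228, close to that in control hair cells.

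Trpv4 in treated non-hair cells scored 31.8, 19.5 and 48.1, and the log2 change was -0.45 (95% interval -1.20 to 0.30, adjusted p = 0.528 by limma). Its order over the 6 replicates was that of the roof epithelium list and of the supporting cell list, highest in the replicates numbered 3. The Pearson correlation of the log2 values was 0.952 with the roof list, 0.980 with the supporting cell list and -0.970 with the mesenchyme list, a description over 6 replicates that share libraries. Per 1000 units of the roof list, most of it Oc90, the level was 21.8, 20.6 and 19.6 in control replicates. In treated replicates it was 19.96, 15.5 and 16.9, and the ranges overlapped slightly.

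Trpa1 and Trpv1, channels of pain-sensing neurons opened by irritants and by capsaicin and heat, were barely detected. Trpa1 (chr1:14872648-14918862, minus strand, 27 exons and 4263 bases in its longest coding transcript) scored 2.12, 2.74 and 3.70 in control non-hair cells, from 27 to 70 reads per replicate, and 1.04, 1.04 and 1.14 in control hair cells, from 1 to 3 reads per replicate. It passed the minimum of reads through the non-hair cells alone, so it had to differ between the populations to be tested at all, and its called log2 difference of -1.37 (SE 0.22, adjusted p = 1.53e-04 by limma) understates the ratio because of the 1 added to each score. After gentamicin it scored 2.35, 2.51 and 3.81 in non-hair cells and 1.08, 1.08 and 1.43 in hair cells, the last from 2 to 12 reads per replicate. Neither log2 change was called (0.02, adjusted p = 0.971, in non-hair cells and 0.15, adjusted p = 0.654, in hair cells).

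Trpv1 (chr11:73234292-73261242, plus strand, 16 exons and 3361 bases in its longest coding transcript) had 20 and 22 reads in all over the control and treated hair cells and 9 and 7 over the non-hair cells. Its scores were 1.09, 1.60 and 1.18 in control hair cells, with 14 of the 20 reads in replicate 2, and 1.21, 1.29 and 1.36 in treated ones. In non-hair cells they were 1.08, 1.16 and 1.12 in control and 1.12, 1.15 and 1 after drug. The treated hair cell scores were all above the treated non-hair cell scores, and the control ranges overlapped. With so few reads Trpv1 was left out of the main fit, so no difference between groups was tested there.

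**Figure D3:**
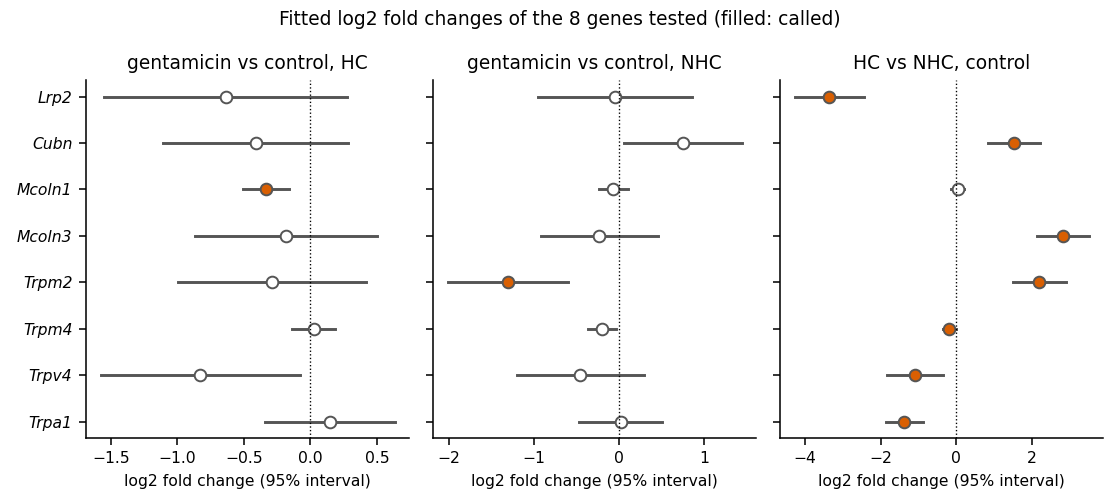
Fitted log2 fold changes (points) with 95% intervals (lines) of the 8 genes tested, for gentamicin against control in hair cells (HC), gentamicin against control in non-hair cells (NHC) and control hair cells against control non-hair cells; filled points were called. Mcoln1 in hair cells and Trpm2 in non-hair cells were the responses called, and the intervals of Mcoln1 and Trpm4 are the narrowest in each panel.

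Across the 8 genes, 6 estimates were below 0 in treated hair cells, with a median log2 change of -0.31 against -0.09 over all genes tested. In treated non-hair cells 6 were also below 0, with a median of -0.13 against -0.01. In hair cells 5 of the 8 (Cubn, Mcoln1, Mcoln3, Trpm2 and Trpv4) had every treated replicate below every control replicate, as did 33.1% of all genes tested. In non-hair cells this held for Trpm2 and Trpm4, and for 7.68% of all genes tested. None of the 8 had every treated replicate above every control replicate in either population, as 21.7% of all genes did in hair cells and 10.1% in non-hair cells. The summed hair cell marker list itself went from 11662–12125 to 9668–10701 in treated hair cells, but its genes did not move together. Myo7a, Otof, Pvalb and Cdh23 were lower in every treated replicate, and Myo6 and Pou4f3 overlapped. Atoh1 (190–223 to 288–304) and Gfi1 (257–280 to 283–322) were higher in every treated replicate.

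Dividing the level (score minus 1) by the length of the longest coding transcript put the genes on 1 scale. In control hair cells Mcoln3 was highest at 53.9 ± 2.87 per kb (SD, n = 3). It was followed by Mcoln1 at 20.7 ± 0.34, Trpm4 at 14.1 ± 0.81, Trpv4 at 5.85 ± 0.22 and Trpm2 at 3.55 ± 0.30. Cubn at 1.61 ± 0.14, Lrp2 at 0.969 ± 0.22, Trpv1 at 0.086 and Trpa1 at 0.018 came last. In that order only Trpv1 and Trpa1 had overlapping replicates. The control non-hair cells had another order, led by Mcoln1 at 20.3 ± 1.30 per kb. Trpm4 at 16.0 ± 0.68, Trpv4 at 13.4 ± 4.85, Lrp2 at 11.6 ± 6.36 and Mcoln3 at 7.94 ± 3.64 followed, each overlapping the next. Trpm2 at 0.694 ± 0.26, Cubn at 0.509 ± 0.13 and Trpa1 at 0.435 ± 0.19 overlapped each other as well, and Trpv1 was lowest at 0.035. After gentamicin the hair cell order was the same, but Trpv4 at 3.29 ± 1.13 per kb then overlapped Trpm2 at 2.88 ± 0.30. In treated non-hair cells Trpm2 stood at 0.215 ± 0.15 per kb, below Cubn at 1.01 ± 0.63 and Trpa1 at 0.444 ± 0.19.

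**Figure D4:**
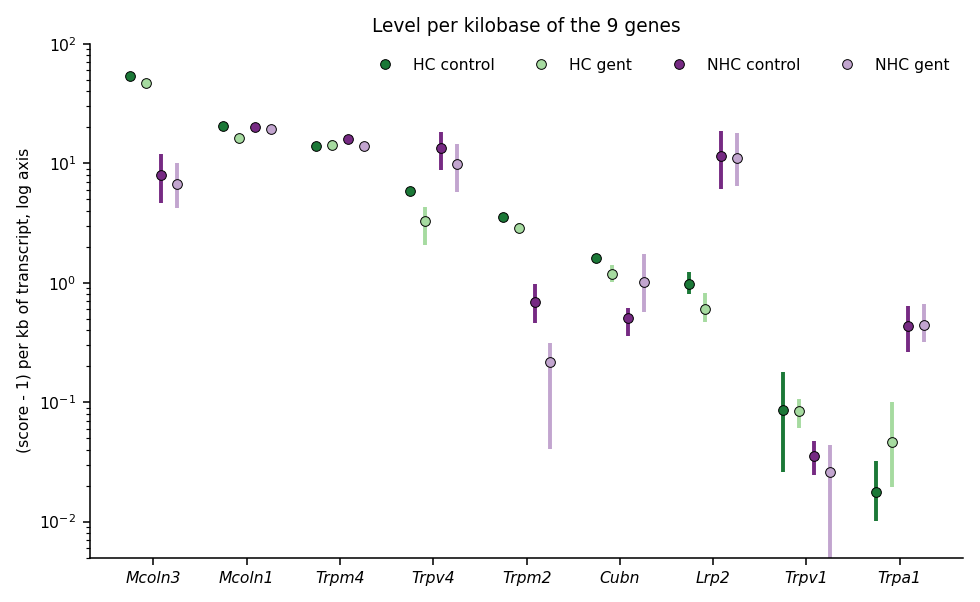
Level (score minus 1) per kilobase of the longest coding transcript on a log axis, for the 9 genes in order of their level in control hair cells; points are means and lines run from the lowest to the highest of 3 replicates, cut at 0.005 where a replicate had no reads. Mcoln3 led in hair cells at 53.9 per kb, Mcoln1 lay between 16.3 and 20.7 and Trpm4 between 13.9 and 16.0 in the 4 groups, and Lrp2 went from 0.969 in control hair cells to 11.6 in control non-hair cells.

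Other genes followed the patterns of the 9 closely, which is given as a description over replicates that share sorts and libraries. Over the 12 replicates the log2 score most like that of Lrp2 was Dsp, the desmosomal protein desmoplakin (Pearson r = 0.996), followed by Podn and Rnase1. Over the 6 non-hair cell replicates it was Lsr (r = 0.999). For Mcoln3 the nearest over the 12 replicates were Sntb1 (r = 0.998), Pax2, a transcription factor of the early ear, and Ptpn6, and over the 6 hair cell replicates St14 (r = 0.997). For Trpm2 they were Entpd4 (r = 0.991), Cyb5r1 and Rbfox3, for Cubn Fam167a (r = 0.951), Ssbp3 and B230118H07Rik, and for Trpv4 Kirrel3 (r = 0.991), Rapgef5 and Fzd8. For Mcoln1 and Trpm4, which varied little, the nearest were less close: Gprasp2 at r = 0.937 and Mms19 at r = 0.917. With 13064 genes compared and 12 points, high values were available for any gene that differed between the populations.

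The genes around the 9 were taken as 8 related lists. Over the 87 tested genes of the 8 related lists together, 28.7% were called in treated hair cells and 3.45% in treated non-hair cells, beside 27.5% and 5.44% of all genes. The other 21 TRP genes set the TRP channels among the 9 in their family. Of the 21, 15 were tested, and in hair cells gentamicin changed 3. Trpm3, a steroid- and heat-gated channel, fell by 0.83 on the log2 scale (SE 0.20, adjusted p = 0.00875 by limma), from 208 ± 23.5 to 121 ± 37.3 (SD, n = 3). Trpm7, a magnesium-permeable channel joined to a kinase, fell by 0.47 (SE 0.08, adjusted p = 0.00106), from 86.8 ± 6.59 to 62.7 ± 2.65. In hair cells Trpm3 was 67.4% and Trpm7 68.7% of the non-hair cell level in control, and 39.8% and 48.5% after drug. The part of other cells in these 2 changes was not tested. Pkd2l2 rose by 0.74 (SE 0.14, adjusted p = 0.00274), from 9.97 ± 1.00 to 16.7 ± 1.79. The range over the family was -0.83 to 0.74 and the median -0.15. None of the 15 was called in non-hair cells. Without drug 2 of the 15 were higher in hair cells, Trpc1 by 1.46 and Pkd2l2 by 0.97, and 10 were lower, with Trpm5, at -3.13, farthest. Of all genes tested, 74.1% were called in this comparison.

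Most genes of the proteins that megalin and cubilin need to reach and leave the membrane scored well above 1 in both populations. An exception, named after its value was seen, was Amn, with mean scores near 1 in hair cells (1.44 in control, 1.16 after drug). Dab2 and Fcgrt also scored low in hair cells, at 4.13 and 5.94 in control and 2.32 and 3.94 after drug. In non-hair cells Amn scored 2.42 and 1.88, and it was lower in control hair cells (-0.72, adjusted p = 0.0258 by limma). Of 12 partners and adaptors, beside 27.5% of all genes called either way, 3 fell in treated hair cells and none rose (median log2 change -0.20). They were Clcn5, the endosomal chloride/proton exchanger of proximal tubule endocytosis (-0.66, SE 0.16, adjusted p = 0.00993 by limma), Mapk8ip1, a JNK scaffold (-0.40, SE 0.11, adjusted p = 0.0153), and Dab2 (-0.79), the adaptor that binds the megalin tail, which fell outside the naming rule because of its low score. The Mapk8ip1 call was lost when scaled by total reads and without control hair cell replicate 2 or treated hair cell replicate 1 or 2. In control samples Dab2 and Fcgrt, the neonatal Fc receptor, were lower in hair cells, with log2 differences of -4.71 and -4.28, as Lrp2 was at -3.37. Dab2 scored 4.13 ± 1.29 in control hair cells and 106 ± 18.8 in control non-hair cells.

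Lrp2's own receptor family had the most falls of the lists in treated hair cells. Of 13 other LDL receptor family genes 6 fell and none rose, with a median log2 change of -0.42 against -0.09 over all genes tested. Of all 16077 genes, 27.5% were called either way, 2381 lower and 2037 higher. Lrp1, a broad endocytic receptor, fell by 1.49 (SE 0.21, adjusted p = 5.15e-04 by limma), from 137 ± 42.0 to 47.9 ± 5.91. Lrp1 in hair cells was 8.25% of its non-hair cell level in control and 2.70% after drug, and the summed mesenchyme level in hair cells went from 169–321 to 125–154. The part of other cells in the Lrp1 change was not tested. Vldlr fell by 1.38 (SE 0.35, adjusted p = 0.0119), from 89.5 ± 8.72 to 36.1 ± 13.0, and was not called without treated hair cell replicate 3. Without drug Lrp8 and Lrp11 were higher in hair cells by 3.03 and 2.38, and Lrp4 and Lrp1 were lower, at -3.75 and -3.61.

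The clathrin and AP-2 coat forms the pits that megalin enters. Of 16 of its genes, 1 rose and 3 fell in treated hair cells, beside 27.5% of all genes called. The clathrin assembly protein Picalm rose by 0.45 (SE 0.07, adjusted p = 9.96e-04 by limma), from 131 ± 4.2 to 179 ± 18.9. The dynamin Dnm1 fell by 0.51 (adjusted p = 0.0114; not called without treated hair cell replicate 3) and the epsin Epn1 by 0.45 (adjusted p = 8.65e-04). In non-hair cells Dnm1 fell by 0.46 (adjusted p = 0.119), a call lost without control or treated replicate 2 and with these groups fitted alone. In control samples 9 of the 16 were higher in hair cells, led by Epn3 (2.90) and Dnm3 (2.21), and 5 were lower, with Ap2s1 at -1.03 and Ap2b1 at -0.54 farthest, beside 74.1% of all genes called. The others that were lower, named after their values were seen, were Ap2a2 (-0.35), Picalm (-0.32) and Ap2m1 (-0.20). The third coat gene that fell in treated hair cells, named after its value was seen, was Ap2m1 (-0.27).

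**Figure D5:**
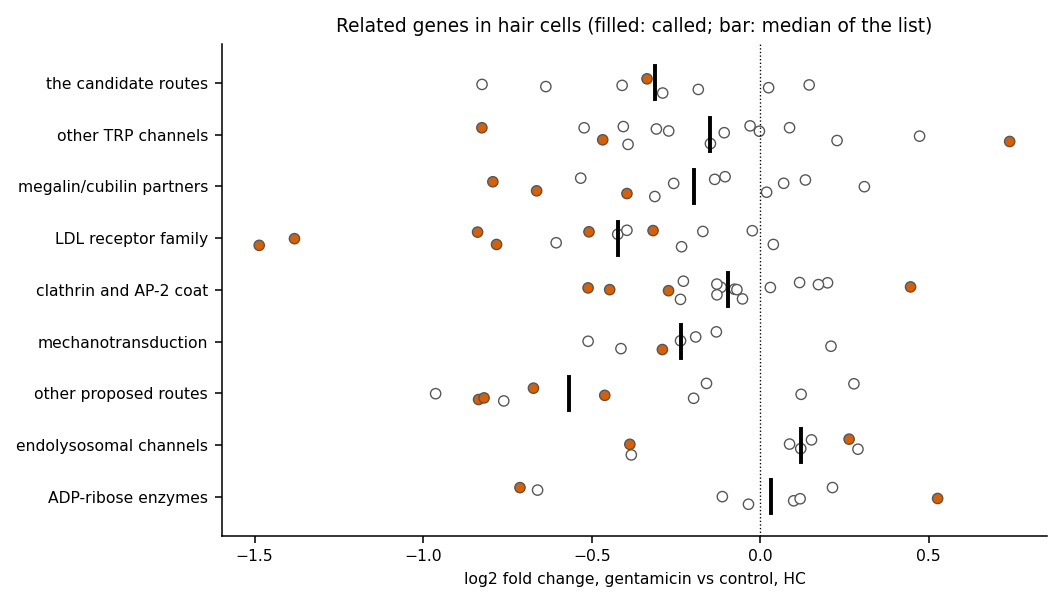
Log2 fold changes of gentamicin against control in hair cells (HC) for every tested gene of 8 lists of related genes and for the 8 candidate routes; each point is a gene, filled where called, and bars are list medians. The LDL receptor family reaches from -1.49 to 0.04, and the endolysosomal channels lie between -0.39 and 0.29.

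The next lists cover the compartments and gating pathways of the channels, again beside 27.5% of all genes called in hair cells. Of 7 endolysosomal channel and phosphoinositide genes, the partners of the mucolipins, 1 rose in treated hair cells and 1 fell. Fig4, part of the complex that makes the lipid which opens mucolipins, rose by 0.26 (SE 0.08, adjusted p = 0.0266 by limma), a call lost with the replicate block and without control hair cell replicate 1 or 2 or treated hair cell replicate 1 or 2. Tmem175, a lysosomal potassium channel, fell by 0.39 (adjusted p = 0.0183), a call lost when scaled by total reads, with voom weights, and without control hair cell replicate 2 or 3 or treated hair cell replicate 2. Vac14, from the same complex as Fig4, was called in non-hair cells (0.49, adjusted p = 0.0665). Of 8 tested enzymes that make or remove the ADP-ribose which opens Trpm2, Adprhl2, an ADP-ribose hydrolase, rose in treated hair cells by 0.53 (SE 0.11, adjusted p = 0.00407). The 1 that fell was Cd38 (-0.71), a low-scoring gene named after its value was seen. In hair cells Cd38 was 15.9% of its non-hair cell level in control and 5.71% after drug. The part of other cells in its change was not tested. Parp1, which makes poly(ADP-ribose) upon DNA damage, was higher in control hair cells by 2.08, at 547 ± 37.1 against 129 ± 2.30.

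The established route and other proposals served as a reference. All 7 tested genes of the mechanotransduction complex were called higher in control hair cells, beside 74.1% of all genes called either way. They were higher by 3.69 to 7.96 on the log2 scale, with Lhfpl5 and Tmc2 at 7.96 and 7.05. The widest difference among the 9 genes in that direction was the 2.81 of Mcoln3. In treated hair cells 1 of the 7 fell, the calcium-binding subunit Cib2 (-0.29, adjusted p = 0.0144 by limma; lost when scaled by total reads and without control hair cell replicate 1 or treated hair cell replicate 3). Of 10 tested genes of other proposed routes 4 fell in treated hair cells and none rose, beside 27.5% of all genes called either way. Piezo2, a mechanically gated channel, fell by 0.82 (SE 0.19, adjusted p = 0.00676), from 172 ± 13.1 to 99.04 ± 21.8. Piezo1 fell by 0.67 (SE 0.14, adjusted p = 0.00454), from 9.22 ± 2.04 to 5.69 ± 0.17, and stood at 8.97% of its non-hair cell level in control and 4.25% after drug. The others that fell, named after their values were seen, were the ATP-gated channels P2rx7 (-0.84) and P2rx4 (-0.46). In hair cells P2rx7 was 14.6% and P2rx4 38.3% of the non-hair cell level in control, and 6.03% and 25.6% after drug. The part of other cells in these changes was not tested. Without drug 3 of the 10 were higher in hair cells and 5 were lower, beside 74.1% of all genes called. The higher ones were the organic cation transporters Slc22a4 (2.16) and Slc22a3 (1.69) and Piezo2 (1.96). The lower ones were Piezo1 (-3.35), P2rx7 (-2.53), P2rx4 (-1.33), Panx1 (-0.78) and Slc22a5 (-0.74). Of these, Slc22a3, P2rx4, Panx1 and Slc22a5 were named after their values were seen.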

How the data were processed

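Polyadenylated RNA of sorted cells was sequenced as 50 bp single-end reads, trimmed, and aligned to mm10 with TopHat2 in PartekFlow by the authors. The deposited score of each gene is described as RPKM in the study's methods, but the authors' values behave as reads scaled per replicate plus 1, with no division by gene length: subtracting the offset of 1 and dividing by the smallest step gave values within 0.1 of a whole number for 83.3–84.5% of values of up to 20 reads. Recovered reads served for the filter and for depth; a score with few reads carries counting error.

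The log2 score was fitted with limma 3.58.1 (R 4.3.3; empirical Bayes with trend) for genes whose recovered reads summed to 100 or more, all 4 groups in 1 model. Responses to gentamicin were called at an unadjusted p under 0.01 and a fold above 1.2; differences between responses and between populations at a Benjamini-Hochberg adjusted p under 0.05. Fold changes refer to the log2 score, whose offset understates changes of low genes. Tables were made with Python 3.11.15. The fit was tested on simulated data.

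All 9 genes are described. Of each related list, the 2 called genes with the largest change each way and a mean score of at least 5 are named, apart from some not reported here; likeness is Pearson's r of log2 scores. The members and lists were chosen with earlier results of these data known. Positions come from GENCODE M21 (GRCm38) and upstream sequences from RefSeq (GRCm38.p6). Alternatives were other scalings, read minimums, an offset of 0.1, voom weights, 2-group fits, the other call rule, each replicate left out, and the replicate number as a block. Same-numbered control hair cell and non-hair cell samples deviated together weakly (correlations 0.22, 0.32 and 0.20). No source used here states a pairing, and the main fit took the replicates as unpaired. No other comparison passed this check.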

Additional observations from a re-analysis of the deposited data

Results flagged for a closer look

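None of the 9 genes had responses that differed between the populations by the test of the difference. Among the related genes named in the lists, the following responses (hair cell minus non-hair cell log2 change, limma, adjusted p under 0.05) differed. Lrp1 (-1.56), Piezo1 (-0.94) and Trpm7 (-0.50) were lower in the hair cell response, and Picalm (0.49) was higher, in every alternative fit. Piezo2 (-0.96), Dab2 (-0.96), Cd38 (-0.94), Tmem175 (-0.58) and Gipc1 (-0.43) were lower as well, but their calls were lost in 9, 10, 7, 6 and 12 alternative fits. In control hair cells Lrp1, Dab2 and Piezo1 stood at 8.25%, 2.97% and 8.97% of their non-hair cell level, and after gentamicin at 2.70%, 1.13% and 4.25%.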

How the results depend on the processing

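Of the 516 alternative values of the 8 genes tested, 485 kept their direction and call. The count of genes called in hair cells (1) was 0 when scaled by total reads and 2 with the 2 groups fitted alone. In non-hair cells (1) it was 0 with the 2 groups fitted alone and under an adjusted p of 0.05, and 0–2 with 1 replicate left out. For the difference between responses (0) it was 0–1 with 1 replicate left out (without treated non-hair cell replicate 3, Cubn). Values that changed sign with 1 replicate left out ranged from -0.0387 to 0.0664 for Trpm4 in hair cells; in non-hair cells from -0.19 to 0.23 for Trpa1, -0.12 to 0.0021 for Mcoln1, -0.56 to 0.10 for Mcoln3 and -0.46 to 0.37 for Lrp2; for the difference from -0.0838 to 0.339 for Trpa1 and -0.28 to 0.37 for Mcoln3; and from -0.0233 to 0.0602 for Mcoln1 between the control populations. With the replicate block, set on all 4 groups, no call of the 9 genes changed, and all-gene counts were 4618, 878, 2306 and 12023. Outside the control populations same-numbered samples did not all deviate together. Control and treated samples of the same number correlated at 0.04, 0.05 and 0.04 in hair cells and 0.21, -0.23 and 0.68 in non-hair cells. Not every sample correlated best with its own number.

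Over all genes, 875 calls in non-hair cells became 383 (2 groups alone), 55 (adjusted p), 411 and 458 (without control or treated replicate 2), 1366 (without control replicate 1) and 1570 (without treated replicate 3); 2158 differing responses became 1374, 1163 and 1254 (without control hair cell replicate 1 or 2 or treated hair cell replicate 2) and 1288 and 1431 (without control replicate 2 or treated replicate 1 of the non-hair cells). Scaling by total reads turned 2037 higher and 2381 lower calls in hair cells into 2774 and 1591, and 1102 and 1056 differing responses into 1500 and 716. The cause was not tested. The 2-group fit gives no difference between responses, Trpa1 was not tested at a minimum of 1000 reads, and Trpv1 only without a minimum. The 53 named changes of related genes kept their direction throughout. Depth limits Trpa1 and Trpv1.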
